A study of Mus musculus with 3 samples.

Results

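Keratin-associated proteins (genes named Krtap) were followed in dorsal skin of 4-day-old mice, as the 38 genes for which the array holds a probe set annotated with that Krtap symbol alone. Where a gene had several such probe sets, the brightest by its 3-array mean stood for it. The 38 genes are part of 18193 genes with a single-symbol probe set, and were divided by subfamily number into 14 high glycine-tyrosine genes (numbers 6, 7, 8, 16, 19, 21 and 22 among those found) and 24 cysteine-rich genes (all other numbers). The study compared 1 wild type female (uncv +/+) with 2 uncv null females (uncv -/-; here null 1 and null 2), all of the BALB/cA strain, full sisters from uncv heterozygous parents, with 1 array per mouse. Uncovered (uncv) is a spontaneous mutation with sparse or missing hair that was later mapped to Rhbdf2, the gene of the inactive rhomboid protein iRhom2. The question was how the transcripts of early postnatal skin differ in uncv null mice. Null is the word of the sample labels, and loss of iRhom2 was not measured here. The uncv allele is carried in every tissue and is not limited to a cell type by any promoter or Cre. Values are log2 expression values made by the submitters with RMA, where 1 unit is a 2-fold difference.

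A hair shaft is built from hair keratins, which form filaments, and from keratin-associated proteins, which fill the space between the filaments and link them through disulfide bonds. The cysteine-rich proteins supply most of these bonds, while the high glycine-tyrosine proteins are small, poor in sulphur and known from the shaft cortex. Keratinocytes switch these genes on late, as they leave the hair matrix and harden into cortex and cuticle, so that in whole skin their transcripts come from growing hair follicles. In such bulk samples, fewer cells of a type and less RNA per cell cannot be told apart.

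The upstream sequences below are shown because their genes make up the contrasting groups in the results. Krtap6-2 and Krtap6-5 lay above wild type in both null arrays. Krtap21-1 lay above it in null 2 but level with it in null 1 (0.01 log2 units above). Krtap19-5 lay on opposite sides of wild type, and Krtap19-1, Krtap5-1 and Krtap5-4 lay below wild type in both. Each is the coding strand, 5′ to 3′, of 120 bases from RefSeq (GRCm38.p6) ending at the base before the annotated start, or 10 bases past it for Krtap5-4. Capitals mark TATAAA, the core of a TATA box. The stretches are chr16:89420112-89420231, minus strand; chr16:89047900-89048019, minus strand; chr16:89403775-89403894, minus strand; chr16:88896450-88896569, minus strand; chr16:88869411-88869530, minus strand; chr7:142297135-142297254, minus strand; and chr7:142303392-142303511, plus strand.
Krtap6-2: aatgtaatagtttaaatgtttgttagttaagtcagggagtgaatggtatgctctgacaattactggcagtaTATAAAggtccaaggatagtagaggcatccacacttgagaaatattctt
Krtap6-5: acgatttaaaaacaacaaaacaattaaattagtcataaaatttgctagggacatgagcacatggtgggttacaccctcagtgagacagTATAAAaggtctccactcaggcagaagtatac
Krtap21-1: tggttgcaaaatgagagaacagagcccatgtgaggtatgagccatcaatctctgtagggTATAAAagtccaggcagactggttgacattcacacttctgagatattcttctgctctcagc
Krtap19-5: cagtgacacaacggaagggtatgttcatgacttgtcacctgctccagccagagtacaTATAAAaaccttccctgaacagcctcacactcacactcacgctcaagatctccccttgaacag
Krtap19-1: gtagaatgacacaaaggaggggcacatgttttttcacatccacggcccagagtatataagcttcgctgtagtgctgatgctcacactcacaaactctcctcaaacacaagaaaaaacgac
Krtap5-1: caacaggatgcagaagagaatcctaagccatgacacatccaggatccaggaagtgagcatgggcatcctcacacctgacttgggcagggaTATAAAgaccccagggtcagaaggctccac
Krtap5-4: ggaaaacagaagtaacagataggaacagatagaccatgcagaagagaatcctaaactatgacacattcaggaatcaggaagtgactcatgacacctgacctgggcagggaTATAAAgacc

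Krtap5-1 and Krtap5-4, both on chromosome 7, hold the run tgggcagggatataaagacc of 20 bases around this element, the longest run shared by any pair of the stretches printed. The TATAAA of Krtap5-4 begins at its annotated start. It and the full run show only because that stretch goes 10 bases past the start. Krtap5-1 and Krtap5-4 also share the run atgcagaagagaatcctaa farther upstream, so their likeness is not limited to the bases around TATAAA. Stretches of the other Krtap5 genes are not printed, and whether they hold these runs was not tested. In the other stretches that hold TATAAA, it begins 30 to 63 bases before the start. Krtap19-5 and Krtap19-1 share a run of 12 bases, and the other pairs share runs of 6 to 9. TATAAA, searched on both strands in the 300 bases from 250 before to 50 after the start, was present for 29 of the 36 members with a promoter entry (80.6%), against 14.2% of 27025 promoters of all genes. It was found for 20 of 23 cysteine-rich genes (87%), 9 of 13 high glycine-tyrosine genes (69.2%) and all 4 Krtap6 and Krtap21 genes. CTTTGAA, the LEF1-type element known from hair keratin promoters, cannot overlap TATAAA on either strand, and was present for 6 of 36 members (16.7%) against 5.27% of all promoters. The hexamer TATAAA was thus found for most but not all members of both groups, Krtap19-1 being one of the 7 without it. Variants of it were not searched, and the Krtap19-1 stretch holds the related run agtatataa, so lacking the hexamer is not lacking a TATA box. The counts describe these windows alone.

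Of the 38 genes, 34 reached the minimum for testing, a 3-array mean of 5 on the log2 scale. The 4 below this minimum were Krtap5-3, Krtap13, Krtap31-1 and Krtap19-4, with means from 2.84 to 4.69. Around the minimum, Krtap31-1 had a mean of 3.46 and Krtap19-4 of 4.69, and Krtap19-1 of 5.02 and Krtap6-3 of 5.38. The medians over all probe sets were 3.70, 3.70 and 3.65 in wild type, null 1 and null 2, so the genes just above the minimum had little signal above the middle of the array.

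The null 1 array stood apart from the others in its ribosomal RNA and Actb controls. The control signal of 18S ribosomal RNA was 3.59 in wild type but 7.93 in null 1 and 4.26 in null 2, and for Actb the signal at the 3′ end of the transcript exceeded that at the 5′ end by 0.66, 1.23 and 0.79 in the same order, so null 1 was highest in both. Hybridisation spike-ins averaged 8.01, 8.71 and 8.44, lowest in wild type and highest in null 1. The part of these controls in the Krtap values was not tested.

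The Krtap genes did not move together against wild type, because the null arrays lay on opposite sides of it. In 22 of the 38 genes null 1 was below wild type and null 2 above it, in 7 genes both null arrays were above, in 9 both were below, and in 0 genes was the order reversed. Among the 34 tested members these counts were 22 (64.71%), 6 (17.65%) and 6 (17.65%). Over 8456 tested genes of all kinds, 20.1% lay below in null 1 and above in null 2, 38.8% were above wild type in both arrays and 26.4% below in both. The median difference from wild type over the 38 genes was -0.32 in null 1 and 0.28 in null 2, where all tested genes had medians of 0.03 and 0.07. The list therefore had no common direction in uncv null skin, although its arrays stood apart. These sides depend on the scaling. With the arrays set to their hybridisation spike-ins, 0 Krtap genes were above wild type in both arrays and 22 below. That scaling moves the medians of all tested genes to -0.67 and -0.36. The shares of all tested genes on each side under it were not counted, so these counts have no background beside them.

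By limma, with Benjamini-Hochberg adjustment over all tested genes, 0 Krtap genes passed an adjusted p of 0.05 in either direction, as did 0.0% of all genes. The smallest adjusted p among them was 0.649, for Krtap5-1, and 0.414 over all genes. Scaled to the spike-ins, 86 of 8456 tested genes passed, Krtap5-1 (limma adjusted p = 0.012) and Krtap19-1 (0.00632) among them. An unadjusted p under 0.05 was reached by 4 members, Krtap5-1, Krtap19-1, Krtap6-5 and Krtap5-4, and by 4.56% of all tested genes. Also 0 members differed by at least 1 log2 unit from wild type on the same side in both null arrays, a rule that 0.225% of tested genes met upwards and 0.296% downwards. With 1 wild type array the test takes its spread from the null pair and from all genes, and p-values measure only the spread between these arrays. The single values below are therefore descriptions of 3 arrays.

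**Figure D1:**
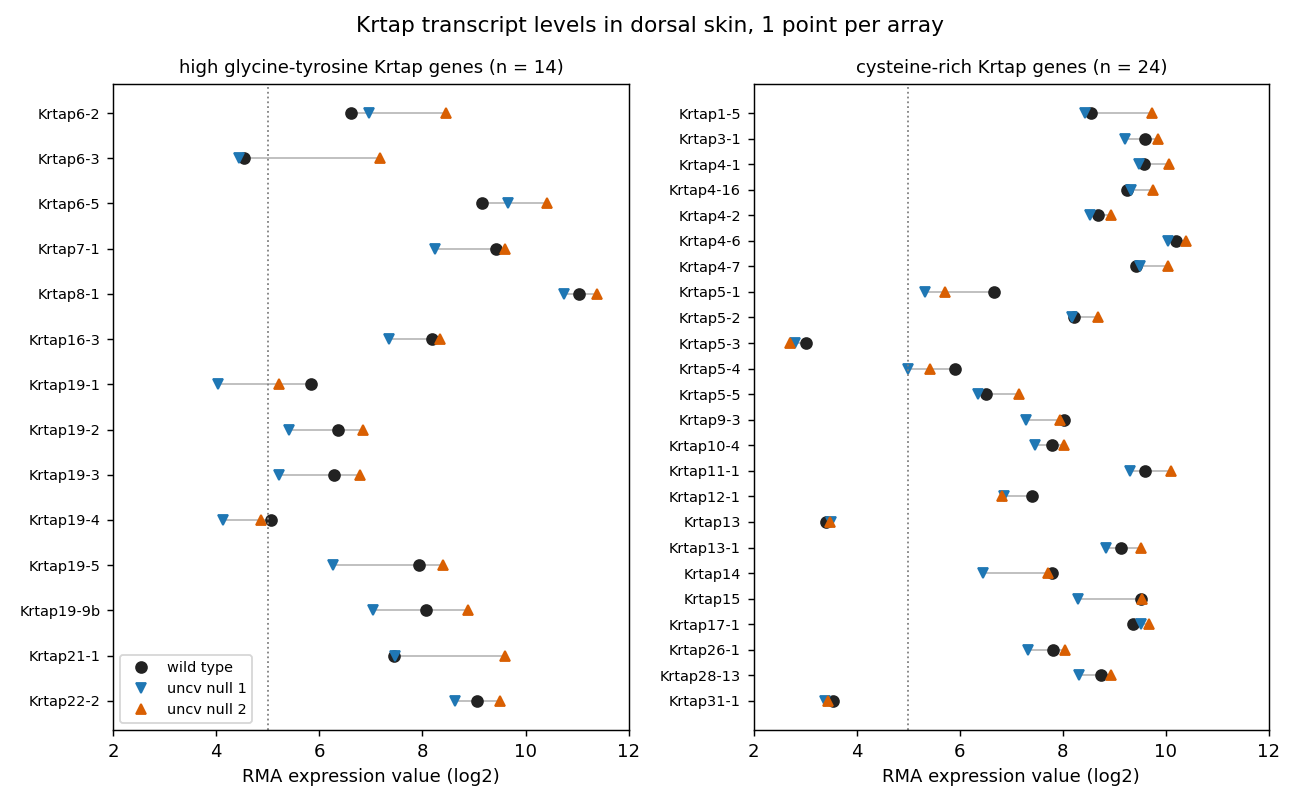
Log2 expression value (x axis) of each Krtap gene (rows) in wild type (black circles), null 1 (blue) and null 2 (orange), with high glycine-tyrosine genes on the left and cysteine-rich genes on the right; the dotted line marks the minimum mean of 5, grey lines span the 3 values, and there is 1 point per array. Null 2 lies to the right of null 1 in all 14 high glycine-tyrosine genes and in 21 of the 24 cysteine-rich genes. Wild type is rightmost in 2 high glycine-tyrosine genes and in 7 cysteine-rich genes, Krtap5-1, Krtap5-4 and Krtap12-1 among them.

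The median of the high glycine-tyrosine genes lay farther from wild type than that of the cysteine-rich genes in each null array, on opposite sides. Their median difference from wild type was -0.88 in null 1 and 0.47 in null 2, against -0.25 and 0.22 for the cysteine-rich genes. The high glycine-tyrosine median minus the cysteine-rich median was thus -0.64 in null 1 and 0.25 in null 2. Taken over both arrays together the medians were -0.17 and -0.01, and their difference was -0.16, with each null array on its own side of 0. With a minimum mean of 7 it was -0.03, between medians of 0.007 and 0.04. Members of a family are not replicates of a condition, so these medians have no test.

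Among the high glycine-tyrosine genes, the 3 Krtap6 genes and Krtap21-1 had the highest values of null 2 against wild type. Krtap6-5 stood at 9.16 (log2) in wild type, 9.66 in null 1 and 10.4 in null 2. Its mean difference was 0.87 ± 0.34 (± the moderated SE from limma, adjusted p = 0.9997), and both null arrays stood above wild type. Krtap6-2 had values of 6.62, 6.95 and 8.46 in the same order, a mean difference of 1.09 ± 0.52 (limma adjusted p = 0.9997). Here too both null arrays stood above wild type, as in 38.8% of all tested genes, but null 2 was 3.59-fold above it and null 1 lay only 0.34 log2 units above. Krtap21-1 had values of 7.45, 7.47 and 9.60, so null 1 was level with wild type, and null 2 was 4.42-fold above wild type and 4.38-fold above null 1. Krtap6-3 had values of 4.54, 4.43 and 7.17, and again only null 2 was high, by 2.64 log2 units. For these last 2 genes the mean differences were 1.08 ± 0.68 and 1.27 ± 0.85 (limma adjusted p = 0.9997 for each), and leaving out null 2 brings them to 0.01 and -0.10. Over the 4 genes the median difference was 0.18 in null 1 and 2.00 in null 2. Singling out this set followed sight of its values.

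The probe set shared by Krtap6-1 and genes without a Krtap symbol, which is outside the 38, had values of 8.80, 9.22 and 10.4, in the same order as Krtap6-2 and Krtap6-5. Krtap6 genes are close in sequence, and an array may not separate them fully. The platform carries a dimmer probe set for Krtap6-3 as well, with values of 2.69, 3.05 and 2.98, which are below the array medians and did not show the high value of null 2.

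The other 10 high glycine-tyrosine genes were below wild type in null 1, with differences from -1.80 to -0.29. Of them, 8 were above it in null 2, an order that 20.1% of all tested genes had. The Krtap6 and Krtap21 genes, set apart on sight of their values, include every group member above wild type in null 1. That all 10 lay below it follows from that choice. Krtap19-5 had values of 7.94, 6.27 and 8.40, a 4.39-fold difference between the null arrays with wild type between them. Krtap19-9b ran the same way at 8.07, 7.05 and 8.88. Krtap19-2 and Krtap19-3 differed from wild type by -0.96 and -1.05 in null 1, and by 0.48 and 0.52 in null 2. In these Krtap19 genes the null arrays thus lay on either side of wild type. Krtap7-1 had values of 9.43, 8.25 and 9.59, with null 1 alone low (mean difference -0.51 ± 0.47, limma adjusted p = 0.9997). Krtap16-3 was similar at 8.19, 7.35 and 8.33. Krtap8-1, the brightest of the group, had 11.0, 10.8 and 11.4 (mean difference 0.03 ± 0.32, limma adjusted p = 0.9997), and Krtap22-2 had 9.06, 8.63 and 9.50.

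Krtap19-1 and Krtap19-4 were the high glycine-tyrosine genes below wild type in both arrays. Krtap19-1 had values of 5.83, 4.02 and 5.22, a mean difference of -1.21 ± 0.44 (limma adjusted p = 0.983), and its value in null 1 was close to the array median. Its dimmer probe set, at 4.40, 4.71 and 4.19, did not repeat this order. Krtap19-4, not tested, had 5.06, 4.14 and 4.87.

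Among the cysteine-rich genes, 13 of 24 had null 1 below and null 2 above wild type, 7 were below in both arrays and 4 above in both. Krtap5-1 had values of 6.66 in wild type, 5.33 in null 1 and 5.72 in null 2. Its mean difference was -1.13 ± 0.28 (limma adjusted p = 0.649), with both null arrays well below wild type and close to each other. These values come from a probe set that other transcripts may also bind, and a set without that flag gave 6.55, 5.04 and 5.75, in the same order. Krtap5-4 had values of 5.91, 4.99 and 5.43, a mean difference of -0.71 ± 0.29 (limma adjusted p = 0.9997). Krtap12-1 had values of 7.40, 6.85 and 6.82 by its brighter probe set and 7.16, 6.30 and 6.50 by the other, with wild type highest in each. Krtap5 and Krtap12 proteins are known from the cuticle of the human hair shaft.

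The Krtap5 subfamily was not uniform, however. Krtap5-2 had values of 8.21, 8.17 and 8.69 and Krtap5-5 had 6.51, 6.36 and 7.16, so that in both genes null 1 was near wild type and null 2 above it. The dim Krtap5-3 had 3.01, 2.80 and 2.71, Krtap13 had 3.40, 3.49 and 3.48, and Krtap31-1 had 3.55, 3.39 and 3.45, all below the array medians. Krtap10-4, of a subfamily that is also known from the human cuticle, had 7.80, 7.46 and 8.01.

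**Figure D2:**
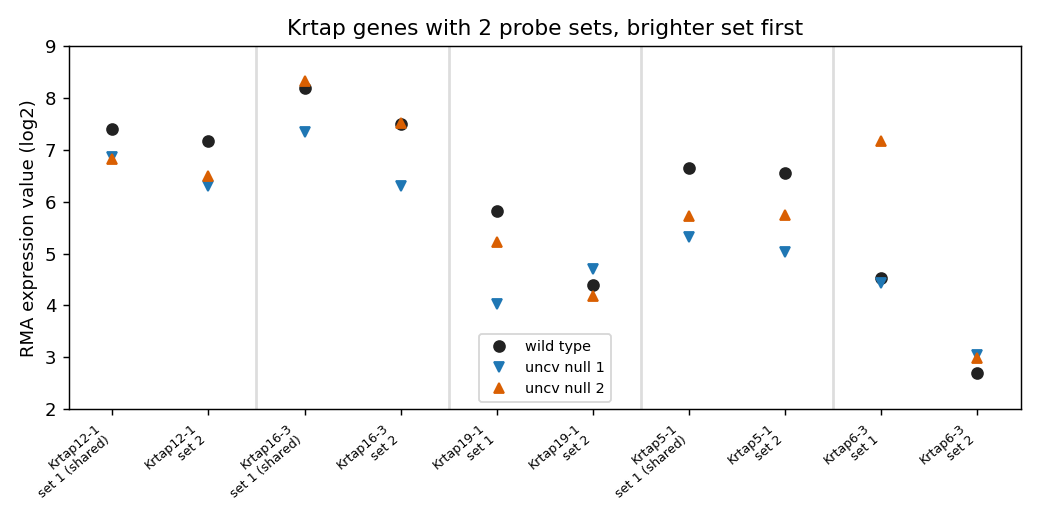
Log2 expression value (y axis) of both probe sets of the 5 Krtap genes that have 2, brighter set first, in wild type (black circles), null 1 (blue) and null 2 (orange); "shared" marks sets whose name ends in x or s, which flags probes that other transcripts may also bind. Krtap5-1, Krtap12-1 and Krtap16-3 keep wild type and null 1 in the same order in both sets, while Krtap19-1 and Krtap6-3 do not.

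Krtap14 and Krtap15, cysteine-rich genes that neighbour the Krtap19 genes, were low in null 1 alone. Krtap14 had values of 7.79, 6.45 and 7.71 (mean difference -0.71 ± 0.45, limma adjusted p = 0.9997). Krtap15 had 9.51, 8.29 and 9.54 (mean difference -0.60 ± 0.45, limma adjusted p = 0.9997). In both genes null 2 differed from wild type by less than 0.09. Krtap9-3 was also low in null 1, at 8.03, 7.28 and 7.95.

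The Krtap4 genes of chromosome 11 encode proteins of very high cysteine content, and in null 1 they lay close to wild type. Krtap4-6 had values of 10.2, 10.1 and 10.4 (mean difference 0.03 ± 0.28, limma adjusted p = 0.9997). Krtap4-1 had 9.58, 9.49 and 10.1 (mean difference 0.19 ± 0.31, limma adjusted p = 0.9997), and Krtap4-2 had 8.67, 8.53 and 8.93. Over the 5 Krtap4 genes the median difference was -0.10 in null 1 and 0.48 in null 2, and Krtap4-7 and Krtap4-16 were above wild type in both. Krtap17-1, at 9.37, 9.52 and 9.67, was also above in both. Krtap1-5 had 8.55, 8.42 and 9.73, and was the cysteine-rich gene in which null 2 stood more than 1 log2 unit above wild type. Krtap11-1, on chromosome 16, had 9.59, 9.31 and 10.1 (mean difference 0.12 ± 0.35, limma adjusted p = 0.9997). Krtap3-1, Krtap11-1, Krtap13-1, Krtap26-1 and Krtap28-13 differed from wild type by -0.48 to -0.28 in null 1 and by 0.20 to 0.51 in null 2. Their arrays kept the order null 1, wild type, null 2.

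By the order of genes along chromosomes in RefSeq (GRCm38.p6), 20 of the 38 genes lie on chromosome 16, including all 14 high glycine-tyrosine genes, 10 on chromosome 11, 5 on chromosome 7, 2 on chromosome 10 and 1 on chromosome 1. Some runs of neighbours on chromosome 16, picked out after their values were seen, had differences of like size, and others did not. Krtap6-5, Krtap6-3, Krtap21-1 and Krtap6-2 follow each other as numbers 14 to 17 of the 20, and were the chromosome 16 members with null 2 at least 1 log2 unit above wild type. Krtap14, Krtap15 and the 6 Krtap19 genes follow each other as numbers 4 to 11, and differed from wild type by -1.80 to -0.92 in null 1. In null 2 the genes of that run ranged from -0.61 (Krtap19-1) to 0.82 (Krtap19-9b). Krtap7-1, number 19, was also low in null 1, at -1.18, while its neighbour Krtap8-1 stood at -0.29 and Krtap6-2, next to that, at 0.34. Subfamily and position overlap in these runs without matching: Krtap14 and Krtap15 stand beside the Krtap19 genes, and Krtap21-1 stands among the Krtap6 genes. The part of each in these values was not tested, and likeness in sequence was not measured.

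**Figure D3:**
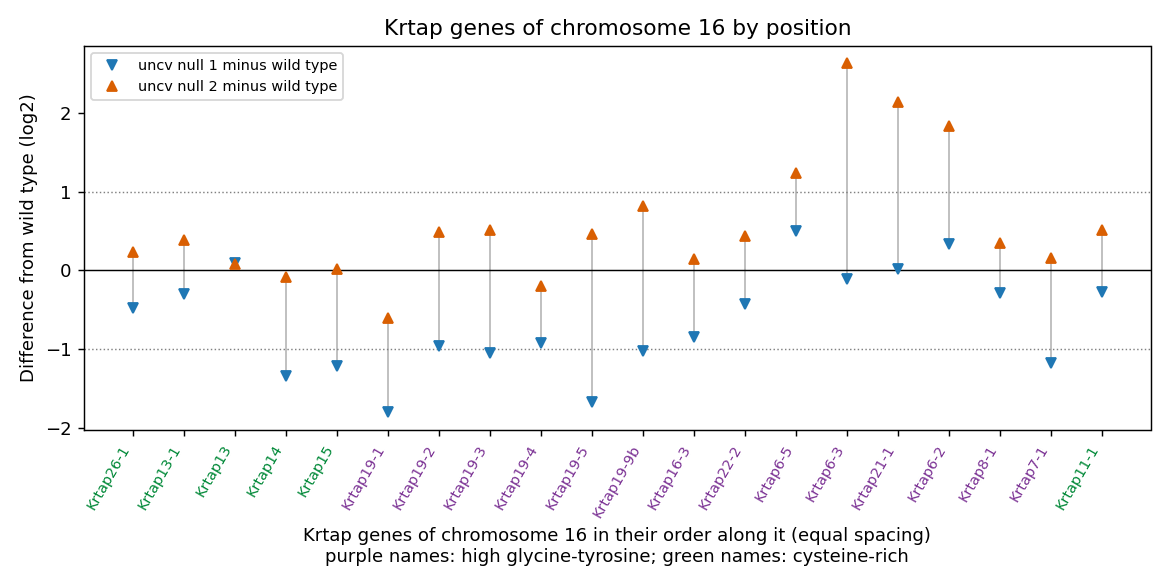
Difference from wild type on the log2 scale (y axis) of the 20 Krtap genes of chromosome 16, in their order along it at equal spacing (x axis), for null 1 (blue) and null 2 (orange); dotted lines mark 1 log2 unit, purple names are high glycine-tyrosine genes and green names cysteine-rich genes. Null 1 is lowest from Krtap14 to Krtap19-9b and at Krtap7-1, and null 2 is highest from Krtap6-5 to Krtap6-2.

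The difference between the null arrays does not use the wild type array. Null 2 exceeded null 1 in 35 of 38 Krtap genes, the exceptions being Krtap5-3, Krtap12-1 and Krtap13 by less than 0.09. It did so in 33 of the 34 tested members and in 55.6% of all tested genes. The median excess was 0.70 log2 units (1.62-fold), against 0.04 over all tested genes. It reached at least 1 log2 unit in 12 members, all tested, of which 9 are high glycine-tyrosine genes, whereas 0.875% of all tested genes reached it. By group, the median excess was 1.39 (2.62-fold) for the high glycine-tyrosine genes and 0.55 (1.47-fold) for the cysteine-rich genes. In 8 members null 1 lay at least 1 log2 unit below wild type (0.497% of all tested genes), and in 5 null 2 lay at least that far above it (1.54%). The arrays of the same genotype label thus lay apart in these transcripts, nearly always with null 2 higher.

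Most hair shaft keratins had the same order, with smaller differences. Of 16 listed, 12 had a single-gene probe set, and 10 of these (10 of the 11 tested) had null 1 below and null 2 above wild type, against 20.1% of all tested genes. Their median differences were -0.27 and 0.17, and the median excess of null 2 over null 1 was 0.45. Krt81 had values of 9.33, 8.62 and 9.34, and Krt83 had 8.39, 7.74 and 8.47, both type II keratins of the cortex that were low in null 1 alone. Krt32, a cuticle keratin, was above wild type in both, at 7.90, 8.14 and 8.51. The cuticle keratins Krt35 and Krt82, named after their values were seen, instead differed by -0.29 and -0.24 in null 1 and by 0.18 and 0.16 in null 2, so the cuticle keratins did not share one side. The 12 keratins summed to log2 values of 12.6, 12.3 and 12.8, and the 38 Krtap genes to 13.9, 13.6 and 14.3. Over 15 measured genes listed for the hair matrix, cortex and cuticle, the medians were -0.05 and 0.29. The list includes Krt75, a keratin of the neighbouring companion layer, which differed from wild type by 0.36 and 0.96. In this list 6 were above wild type in both arrays (40%), 4 below in both (26.7%) and 4 below in null 1 and above in null 2 (26.7%), shares near those of all tested genes (38.8%, 26.4% and 20.1%). Of the regulators, Hoxc13, a homeobox factor that hair keratin genes depend on, had 6.22, 6.17 and 6.16. Foxn1, the nude gene, which hair keratinization needs, had 5.28, 5.43 and 5.78, and Lef1, a Wnt effector, had 6.27, 6.48 and 6.13. Msx2, a homeobox factor of the hair matrix named after its values were seen, had 7.13, 6.72 and 7.50, the order most Krtap genes had, while Hoxc13, Foxn1 and Lef1 did not have it. None of these lists had a gene past the limma threshold. The inner root sheath list, the layer that moulds the shaft, had 8 of 10 genes above wild type in both arrays (38.8% of all tested genes) and medians of 0.09 and 0.37.

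**Figure D4:**
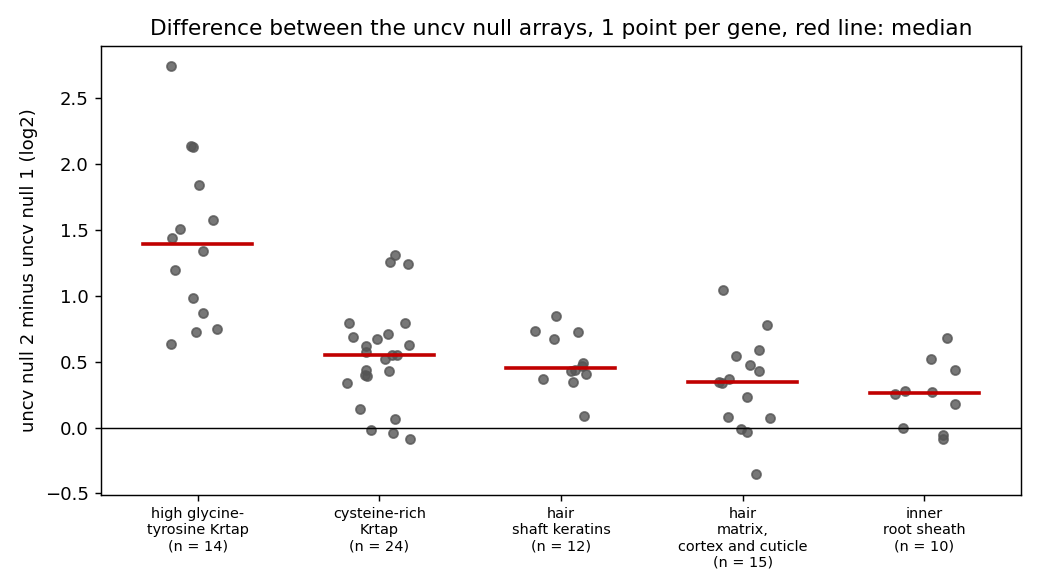
Null 2 minus null 1 on the log2 scale (y axis) for each gene (points) of the high glycine-tyrosine and cysteine-rich Krtap groups and of 3 lists of other hair follicle genes, with the median as a red line; horizontal scatter has no meaning. The medians are 1.39, 0.55, 0.45, 0.35 and 0.26 from left to right.

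Markers of other cells also varied between the arrays. The 3 melanocyte markers (Dct, Tyrp1, Pmel), from cells of the hair bulb, summed to log2 values of 10.2, 9.82 and 10.5, in the order of the Krtap genes. Suprabasal epidermal markers (Krt1, Krt10, Lor, Flg) summed to 14.3, 14.2 and 14.4 and basal ones (Krt5, Krt14, Itga6) to 12.5, 12.5 and 12.9, so the defining markers of skin were present on every array. The 6 skeletal muscle markers summed to 13.7, 13.2 and 13.0 and the 4 measured white adipocyte markers to 12.0, 12.4 and 12.5, and each of these muscle and adipocyte markers had a mean of at least 6.53. All 6 muscle markers were below wild type in both null arrays, as were all 5 dermal fibroblast markers (26.4% of all tested genes), and the 4 adipocyte markers were above in both (38.8%). The fibroblast markers (Col1a1, Col1a2, Col3a1, Dcn, Lum) summed to 14.4, 14.3 and 13.9, with median differences of -0.11 in null 1 and -0.49 in null 2. Mbp, the 1 measured of 3 Schwann cell markers, had 9.16, 7.88 and 7.29, and was the one listed marker at least 1 log2 unit below wild type in both (0.296% of all tested genes). Macrophage markers summed to 9.70, 9.79 and 9.61, mast cell markers to 10.2, 10.1 and 9.98, and endothelial ones to 7.05, 7.05 and 7.09. The part of the amount of hair follicle tissue and of these other cell types in the Krtap values was not tested. Rhbdf2 itself had values of 5.83, 6.29 and 6.49, which does not check the genotype labels, since the probes were not placed against the mutation.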

How the data were processed

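Total RNA of dorsal skin was labelled with biotin and hybridised to 1 single-colour array per mouse. The deposited values are log2 expression values, for which the authors used RMA, per the submitters' processing notes, while the program that ran it is not named. RMA gives the arrays a common intensity distribution, so a shift of all transcripts together cannot be seen, and it compresses folds of dim genes. Values ran from 1.96 to 13.1 over 45101 probe sets. Probe sets were named from the platform annotation, 34945 with 1 symbol, and 6 Krtap probe sets with several symbols were left out of the family. All 38 members matched RefSeq by Entrez identifier, and sequences are from RefSeq (GRCm38.p6).

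Genes with a mean log2 of at least 5, each by its brightest probe set, entered the fit of limma 3.58.1 (lmFit and eBayes, R 4.3.3; 8456 genes, Benjamini-Hochberg adjustment, 1 residual and 7.57 prior degrees of freedom). The fit takes the lone wild type array to be as variable as the null pair. Genes in the text followed a rule: in each group the 3 brightest tested members and the 4 with the largest mean difference in full, with the 2 members on each side of the minimum and the others by their values. Members under the minimum were named, after their values were seen, so that all are accounted for. The members, the groups and the gene lists were chosen with earlier results of these data known. Alternatives were other filters, probe set rules, normalizations and variance models, and dropping either null array. The number of arrays limits the precision.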

Additional observations from a re-analysis of the deposited data

How the results depend on the processing

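No paired analysis was possible because the wild type group has 1 array and its label carries no replicate number. The count of 0 genes past limma's threshold held with other filters, probe set rules, an intensity trend, a robust prior, renewed quantile normalization and median centring, but became 86 when arrays were scaled to the spike-ins, which moved the medians of all tested genes to -0.67 and -0.36. Under that scaling 266 genes in place of 44 passed the 2-fold rule, 0 Krtap genes lay above wild type in both arrays and 22 below, the cysteine-rich median became -0.58, Krtap19-1 (-1.77, limma adjusted p = 0.00632) and Krtap5-1 (-1.69, 0.012) passed, and Krtap8-1 (-0.53), Krtap4-6 (-0.53), Krtap4-1 (-0.37) and Krtap11-1 (-0.44) turned negative. The cause of the spike-in offset was not tested. Shares of all tested genes on each side of wild type were not counted under this scaling, nor with a null array left out. A minimum mean of 7 left 11 genes past the 2-fold rule and 3 Krtap genes below wild type in both arrays. A 1.5-fold rule gave 240 genes. Fewer genes or a lower bar account for these counts by construction. With the minimum of 7, the high glycine-tyrosine and cysteine-rich medians were 0.007 and 0.04, both above 0. They were -0.17 and -0.01 as reported, and their difference became -0.03 in place of -0.16. The high glycine-tyrosine genes dropped, with their mean differences, were Krtap19-1 (-1.21), Krtap19-2 (-0.24), Krtap19-3 (-0.27), Krtap19-4 (-0.56) and Krtap6-3 (1.27). The negative high glycine-tyrosine median was thus not kept without these dim members. Median centring turned Krtap8-1 to -0.031 and Krtap4-6 to -0.027. Over the 34 tested members, added after seeing the data, the high glycine-tyrosine and cysteine-rich medians were -0.10 and 0.03. Leaving out uncv null 1 or uncv null 2 in turn gave 294 or 80 genes past the 2-fold rule, 29 or 7 Krtap genes above wild type and 9 or 31 below, high glycine-tyrosine medians of 0.47 or -0.88, cysteine-rich medians of 0.22 or -0.25 and differences of 0.25 or -0.64. It turned the sign of 7 of 14 named genes, whose values without uncv null 1 or without uncv null 2 were 0.16 or -1.18 for Krtap7-1, 0.024 or -1.22 for Krtap15, 0.35 or -0.29 for Krtap8-1, 2.64 or -0.10 for Krtap6-3, 0.20 or -0.14 for Krtap4-6, 0.48 or -0.10 for Krtap4-1 and 0.51 or -0.28 for Krtap11-1. With a single uncv null array there is no test. Grouping by protein composition was not run, as no protein sequences were used here. Detection calls were not used, so how far dim members stood above background is unknown.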
